A study of Mus musculus with 8 samples.

Results

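Gene expression of cDC1 and cDC2, the main subsets of conventional dendritic cells, was compared over the 4 libraries sorted as cDC1 and the 4 sorted as cDC2. Libraries were assigned by their titles, and 8 of the 8 libraries of the series entered the comparison. All came from MC38-EGFP tumours of mice whose genotype is given as WT (wild type). MC38 is a mouse colon carcinoma line, carrying here enhanced green fluorescent protein (EGFP). Each subset was sorted again into cells without and with EGFP signal, which gave 2 EGFP-negative and 2 EGFP-positive libraries per subset. The EGFP fraction was a covariate in the comparison of all 8 libraries. The title of the series names sitagliptin, a drug that inhibits DPP4, but no drug is given for any library. One label field gives colon cancer as the cell type, whereas the titles name dendritic cells, and the marker genes below were read as the check. Mouse strain, age, tumour stage and the surface proteins used for the gates are not given in the labels. The titles carry a code that the 4 libraries of each replicate number share, but the labels do not say whether it stands for an animal, nor that replicates came from separate animals, so the p-values rest on the spread of these samples alone, and that spread may be technical.

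Conventional dendritic cells take up antigen in tissue, carry it to lymph nodes and present it to T cells. The cDC1 subset develops under IRF8 and BATF3, recognises dead cells through CLEC9A, and is known for cross-presentation, the display of captured antigen on MHC class I to CD8 T cells. The cDC2 subset depends more on IRF4 and KLF4, carries SIRPα and CD11b, and is known for presenting antigen on MHC class II to CD4 T cells. Tumours also hold monocytes and macrophages, which share SIRPα, CD11b and class II molecules with cDC2 and make complement C1q, apolipoprotein E and lysosomal proteases.

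Library totals ranged from 17869441 to 22195681 counts, of which the ribosomal RNA precursor Rn45s took 19.4 to 35.6%. At least 1 count was found for 8208 to 10096 genes in the cDC1 libraries and for 10301 to 11922 in the cDC2 libraries. Across the 11394 tested genes, log2(CPM + 1) of the 2 replicates correlated at 0.629 (Pearson) in EGFP-positive cDC1, at 0.85 in EGFP-negative cDC1, and in cDC2 at 0.898 without and 0.875 with EGFP. These values are descriptions, since genes do not count as replicates. The library of EGFP-positive cDC1 replicate 2 stood apart: Ccr7 and Il12b stood at 5498 and 4651 CPM there, against at most 368 and 98.6 CPM in the other cDC1 libraries, and it was the highest of them for Lyz2, Arg1 and Apoe. EGFP-positive cDC1 replicate 1 had 0.0438 CPM, which is 1 count, of both Sirpa and Itgam, which reached 3.08 and 16.1 CPM or more in every other library. Beside the gene lists below, counts are also given without replicate 1 or replicate 2 of EGFP-positive cDC1 for many of the lists. Leaving out any other library lowered the calls over all genes, as given below, and is not shown per list. Levels are CPM, gene counts scaled to library size with edgeR's TMM factors, and are listed per subset in the order EGFP-negative replicates 1 and 2, then EGFP-positive replicates 1 and 2. Fold changes are log2 of cDC1 over cDC2 with their standard error.

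The subsets differed in a minority of genes by the test and in a larger number by the separation of their levels. By edgeR's quasi-likelihood test with Benjamini-Hochberg adjustment, 150 of 11394 genes (1.32%) differed, 93 higher in cDC1 (0.816%) and 57 lower (0.5%). In 1426 genes (12.5%) the levels did not overlap, that is, every cDC1 library lay on the same side of every cDC2 library. Of these, 451 (3.96%) were higher and 975 (8.56%) lower in cDC1. A gene list below whose count is near these shares, or near the shares that passed, does not stand out from all genes. With libraries left out, more of all genes separated. Levels did not overlap in 17.3% without EGFP-positive cDC1 replicate 1, 17.9% without replicate 2 and 33.5% without both. Without replicate 2, 758 of 12481 genes were higher and 1476 lower without overlap. List counts in these settings are to be read beside those shares. Of the 150 genes that passed the test, 147 did not overlap. The other 3 were Gpr171 and Vrk1, which were higher in cDC1, and the metallothionein gene Mt1, which was lower. With 1 library left out, the count of 150 became 50 to 88 without any 1 of the cDC2 or EGFP-negative cDC1 libraries, and 263 and 277 without EGFP-positive cDC1 replicates 1 and 2. DESeq2 on the same genes called 1160 (10.2%), of which 396 were higher and 764 lower in cDC1. In the simulated counts described below it called 146 unchanged genes and edgeR 9, which limits its counts beside the gene lists. Among non-overlapping genes, 20.2% of those higher in cDC1 and 5.74% of those lower passed the test. The median log2 fold change was −3.78 for the lower genes, 1.76 for the higher genes and −0.28 over all tested genes. Weak genes were more common among the lower ones. The higher subset averaged at least 10 CPM in 619 of the 975 lower and 431 of the 451 higher genes. When at least 10 CPM in at least 4 libraries was required, 449 genes were higher and 475 lower without overlap.

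The gap between the subsets was measured as the log2 distance between the nearest libraries of either side, with 0.5 CPM added. Its median was 0.45 for the genes higher in cDC1 and 0.606 for those lower. A gap of at least 1, that is 2-fold, was found in 116 higher and 327 lower genes, and one of at least 5 in 1 higher and 10 lower genes. In the cDC2 libraries, 9 of the genes higher in cDC1 had 0 counts in all 4, whereas 158 of the genes lower in cDC1 had 0 counts in all 4 cDC1 libraries. Most of those 158 were weakly expressed in cDC2, with a median of 3.51 CPM, and 3 of them passed the test. The non-overlapping genes higher in cDC1 took 30.2 to 34.3% of all counts other than Rn45s in the cDC1 libraries and 7.68 to 13.6% in the cDC2 libraries. The lower genes took 4.65 to 9.87% in cDC1, with the highest share in EGFP-positive replicate 2, and 25 to 30.0% in cDC2.

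**Figure D1:**
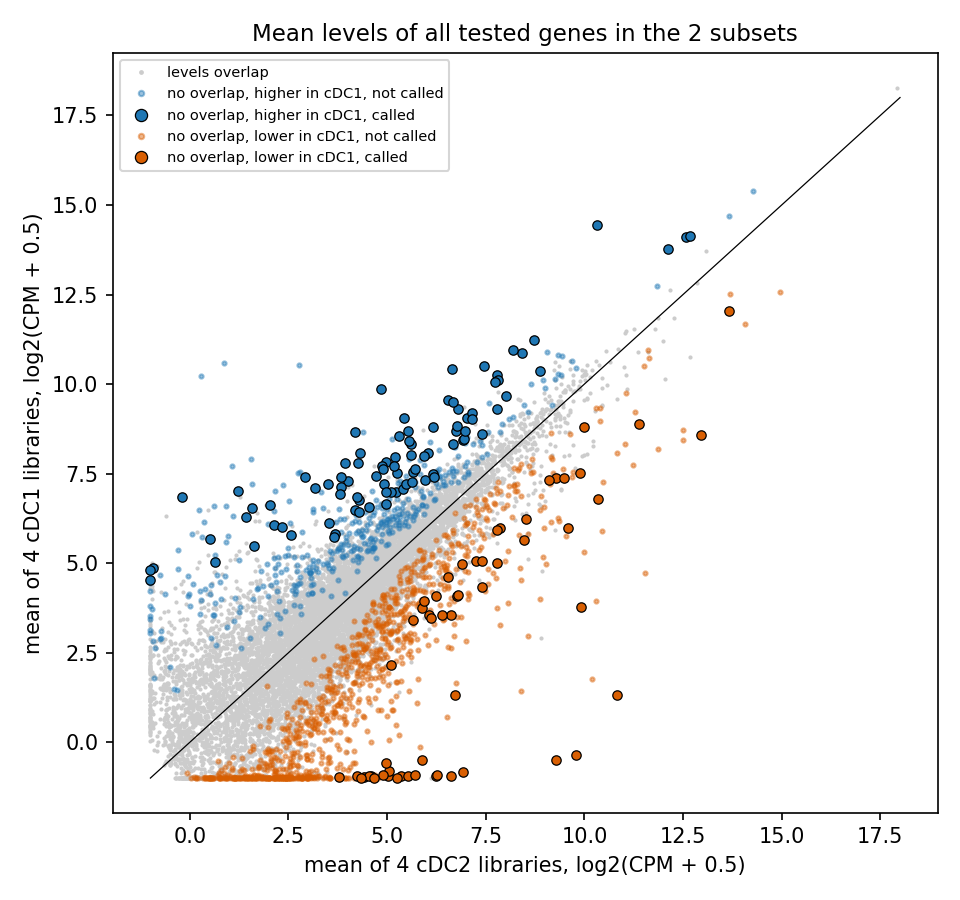
Mean level of each of the 11394 tested genes in the 4 cDC2 libraries (x axis) and the 4 cDC1 libraries (y axis), as log2(CPM + 0.5), with the line of equal levels. Blue points are the 451 non-overlapping genes higher in cDC1, orange points the 975 lower in cDC1, outlined points those among the 150 that passed the test; many orange points lie along the floor, where cDC1 had almost no counts.

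Defining markers of cDC1 were high in the libraries carrying that label. Of 22 cDC1 identity genes, 16 did not overlap and were higher in cDC1, 9 of them past the test, and 0 were lower. The list's median log2 fold change was 3.83. Xcr1, the receptor for the chemokine XCL1 made by T and NK cells, was at 309, 331, 222 and 103 CPM in cDC1 and 4.15, 0.0890, 5.31 and 0.149 CPM in cDC2. Clec9a, the dead-cell receptor, was at 217, 179, 49.1 and 129.6 and 3.07, 3.96, 11.1 and 0.396 CPM. Neither gene overlapped, and the lowest cDC1 library was EGFP-positive in both cases. They missed the test at adjusted p = 0.104 and adjusted p = 0.0557. Irf8 was at 1485, 1032, 418 and 1318 CPM in cDC1 and 304, 219, 234 and 98.7 CPM in cDC2, with EGFP-positive replicate 1 the lowest cDC1 library (log2 fold change 2.33 ± 0.42, adjusted p = 0.0346). Its partner Batf3 was at 71.7, 66.7, 16.3 and 20.7 CPM in cDC1, lower in both EGFP-positive libraries, and at 1.83, 3.25, 4.06 and 1.19 CPM in cDC2 (log2 fold change 3.79 ± 0.74, adjusted p = 0.0424). The levels of Id2, a regulator of cDC development, and of Cadm1, an adhesion molecule of cDC1, overlapped between the subsets.

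Most genes shared by all cDC were higher in the libraries labelled cDC1. Of the 15 such genes tested, 12 were higher in cDC1 without overlap, 3 passed the test and 0 were lower, with a median of 3.42. Flt3, the receptor for the cDC growth factor, was at 208, 171, 67.2 and 67.9 CPM in cDC1 and 10.8, 0, 5.15 and 0.0495 CPM in cDC2. Zbtb46, a transcription factor restricted to the cDC lineage among myeloid cells, was at 35.2, 10.1, 29.7 and 37.1 CPM in cDC1 and 0.0539, 0.134, 0 and 1.04 CPM in cDC2. Neither passed (adjusted p = 0.279 and adjusted p = 0.0646). Itgax, which encodes CD11c, did not separate the subsets (50.2 ± 32.1 against 64.8 ± 15.3 CPM), and the class II gene H2-Ab1, also on this list, remained at 3255 to 8486 CPM in cDC2. Markers of cDC2 itself separated by member. Of 18 tested, 4 were lower in cDC1 and 1 higher without overlap, beside 8.56% and 3.96% of all tested genes. In each direction 1 passed the test (Klf4 lower and Tbx21 higher), and the list median was −1.16. The list summed to 580.9 to 1531 CPM in the cDC1 libraries and 1857 to 2503 CPM in the cDC2 libraries, without overlap. Irf4 overlapped, at 0.327, 3.96, 0 and 11.9 CPM in cDC1 and 0.269, 8.77, 9.63 and 13.3 CPM in cDC2, and so did Cd209a, Clec10a and Mgl2, lectin genes used to recognise cDC2. Sirpa was at 3.08, 29.5, 0.0438 and 99.0 against 237, 271, 338 and 170.5 CPM and Itgam, which encodes CD11b, at 16.1, 22.5, 0.0438 and 181 against 398, 334, 312 and 253 CPM. These 2 genes did not overlap, though EGFP-positive cDC1 replicate 2 came close to cDC2, and neither passed (adjusted p = 0.459 and adjusted p = 0.517).

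The libraries labelled cDC2 carried the transcripts of macrophages at high level. Of 22 macrophage genes, 19 were lower in cDC1 without overlap and 4 passed the test (Pf4, C1qa, Folr2 and Spp1); the median was −4.64. Without EGFP-positive cDC1 replicate 1, 8 of the 22 passed, without replicate 2, 12, and without both, 18. The summed level of the list was 1853 to 13670 CPM in the cDC1 libraries, highest in EGFP-positive replicate 2, and 31080 to 61120 CPM in the cDC2 libraries. Adgre1, which encodes F4/80, was at 5.56, 3.73, 41.7 and 0.421 against 309.8, 199, 254 and 116 CPM, without overlap (adjusted p = 0.217). Mertk, an engulfment receptor of macrophages, had 0 counts in all 4 cDC1 libraries and 3.77, 21.3, 7.60 and 12.5 CPM in cDC2 (adjusted p = 0.0975). Fcgr1, Csf1r and Gpnmb overlapped. Of 16 monocyte genes tested, 6 were lower in cDC1 and 1 (Plac8) higher without overlap, beside 8.56% and 3.96% of all tested genes. By edgeR with all 8 libraries, Cebpb alone of the 16 passed. With EGFP-positive cDC1 replicate 2 left out, 4 passed lower and 9 were lower without overlap. The part of macrophage and monocyte RNA in the subset differences below was not tested, and cDC2 in these results names the sorted gate. In such bulk libraries, fewer cells of a type and less RNA per cell cannot be told apart.

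Markers of other cell types were read as summed levels. None of the 10 T and NK cell genes reached the tested set. The 9 of them found by symbol summed to 0 to 0.14 CPM in cDC1 and 0 to 1.61 CPM in cDC2. Of the 8 B cell genes, the 7 found by symbol summed to 0 to 22.3 CPM in cDC1 and 2.05 to 5.67 CPM in cDC2. The 9 plasmacytoid DC genes summed to 95.5 to 192 and 130.3 to 297 CPM. Of the 10 neutrophil genes, the 9 found by symbol summed to 187 to 631 and 92.0 to 370 CPM. Mast cell and basophil genes summed to 14.0 to 59.8 CPM in cDC1 and 0.27 to 11.2 CPM in cDC2, nearly all of it Kit. Fibroblast genes reached 826 CPM in EGFP-positive cDC1 replicate 1 and 173 CPM in EGFP-positive cDC2 replicate 2, mostly from the matrix protein gene Sparc. Endothelial genes summed to 7.88 to 24.9 CPM in cDC1 and 15.5 to 24.3 CPM in cDC2, and epithelial genes to 1.64 to 136 and 17.8 to 133 CPM. Of the erythroid and platelet list, Pf4 passed, a gene it shares with the macrophage list. Of its other 8 genes, 7 were too low to be tested, and Itga2b was at 0 to 54.3 CPM in cDC1 and 0 to 0.0445 CPM in cDC2, which overlapped, missed edgeR's test (adjusted p = 0.129) and was called higher by DESeq2.

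**Figure D2:**
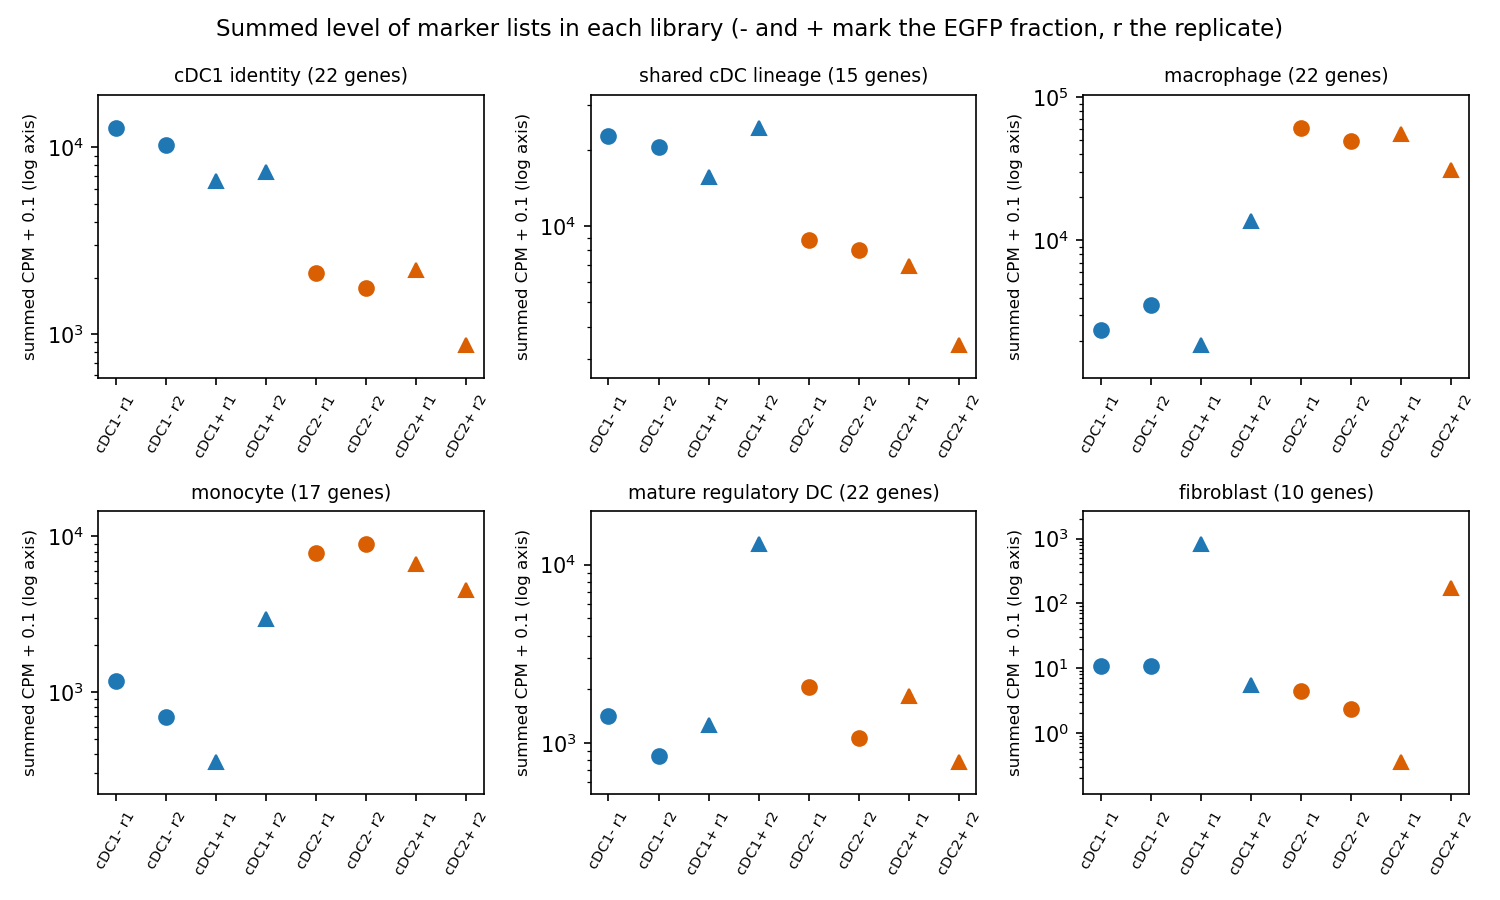
Summed level of 6 marker lists in each library (points; CPM + 0.1 on a log axis), with cDC1 in blue, cDC2 in orange, EGFP-negative as circles and EGFP-positive as triangles. The cDC1 and shared cDC lists are higher in all 4 cDC1 libraries and the macrophage list is higher in all 4 cDC2 libraries, while the mature regulatory DC list is high in EGFP-positive cDC1 replicate 2 and the fibroblast list in EGFP-positive cDC1 replicate 1.

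The widest gap among the genes higher in cDC1 was that of Plet1, a surface protein gene. It was at 1973, 849, 2012 and 1104 CPM in cDC1 and 1.02, 1.11, 22.7 and 0.198 CPM in cDC2 and missed the test (log2 fold change 8.68 ± 1.68, adjusted p = 0.0697). B4galt4, a galactosyltransferase gene, had 17.1, 28.4, 28.1 and 41.7 CPM in cDC1 and 0 to 0.0539 CPM in cDC2, and passed (adjusted p = 0.00821). Itgae, which encodes the integrin chain CD103, was at 141, 178, 290.2 and 221 against 0.108, 0.668, 5.57 and 0 CPM. Its partner chain gene Itgb7 was at 481, 593, 358 and 213 against 128, 125, 98.2 and 78.1 CPM. Neither overlapped, and of the pair Itgb7 passed (log2 fold change 1.89 ± 0.27, adjusted p = 0.0125) and Itgae did not (adjusted p = 0.0806). Kmo, an enzyme of the kynurenine pathway of tryptophan breakdown, was at 123, 70.6, 70.6 and 121 against 0.108, 2.76, 1.25 and 0 CPM (adjusted p = 0.0619).

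Some of the genes are best known from lymphocytes. Tbx21, the gene of the T cell and NK cell factor T-bet, was at 29.4, 16.6, 8.05 and 55.8 CPM in cDC1 and had 0 counts in all 4 cDC2 libraries, at least 737-fold higher when cDC2 is set to 3 counts over the group (adjusted p = 0.03). Ctla4, an inhibitory receptor for CD80 and CD86, was at 54.1, 23.3, 39.1 and 45.7 against 0, 0.0445, 1.20 and 0 CPM. Btla, another inhibitory receptor, was at 243, 173, 77.7 and 94.3 against 0.0539, 0.757, 9.06 and 0.0990 CPM. Both were separated in every library and both missed the test (adjusted p = 0.0569 and adjusted p = 0.202). Markers of T and NK cells were at or near 0 in the same libraries, as given above. Tespa1, known from T cell receptor signalling, ranged from 5.99 to 64.6 CPM in cDC1 and from 0 to 0.312 CPM in cDC2 (adjusted p = 0.0789).

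The peptidase gene Dpp4, whose product is the target of sitagliptin, was at 181, 184, 48.0 and 104 CPM in cDC1 and 5.66, 1.11, 0.625 and 0 CPM in cDC2 (log2 fold change 6.75 ± 1.1, adjusted p = 0.0264). Its lowest cDC1 library was EGFP-positive replicate 1, still above all cDC2 libraries. Ccr7, the receptor that directs dendritic cells to lymph nodes, was at 277, 70.8, 368 and 5498 CPM in cDC1 and 0.485, 4.01, 0.208 and 0.594 CPM in cDC2. The gap held in every library, but the cDC1 mean rests on EGFP-positive replicate 2, and the gene missed the test (adjusted p = 0.139). Without that library the log2 fold change was 7.73, and with each library left out in turn it was 7.73 to 11.17. Septin3, a cytoskeletal GTPase gene, spread from 12.6 to 243 CPM in cDC1 against 0 to 0.625 CPM in cDC2 (adjusted p = 0.0264), and Cacna1s, a calcium channel subunit gene, from 3.46 to 63.6 CPM against 0 counts (adjusted p = 0.0374). Pacsin1, Ppp1r14a, Wdr86, Spint2, Traf4 and Rab27a, each at 5.16 CPM or more in every cDC1 library, had 0 to 2.13 CPM in cDC2 and did not pass (adjusted p 0.0522 to 0.139).

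In the opposite direction the widest gap, and the widest of all genes, was that of Pf4, a chemokine of platelets and resident macrophages. It was at 0.0935, 0.140, 0.175 and 0.421 CPM in cDC1 and 581, 249.7, 885 and 784 CPM in cDC2 (log2 fold change −11.59 ± 0.54, adjusted p = 2.2e-05). C1qa, a chain of complement C1q, was at 2.2, 1.12, 0.481 and 4.21 against 2096, 1718, 2478 and 979 CPM (log2 fold change −9.85 ± 0.83, adjusted p = 0.00109). The other C1q chain genes did not overlap either. C1qb was at 1.78, 3.59, 0.919 and 98.4 against 3293, 3248, 3800.5 and 1574 CPM, C1qc reached 10.7 CPM in EGFP-positive cDC1 replicate 2, and both missed the test (adjusted p = 0.129 and adjusted p = 0.0569). Mmp13, a collagenase gene, was at 0.0935, 0, 0 and 0.140 against 166, 132, 102 and 85.0 CPM. Ccl8, a chemokine that attracts monocytes, was at 0.0467, 0.140, 0.0438 and 0.912 against 160.4, 41.1, 1596 and 1764 CPM. In cDC2 it was high in both EGFP-positive libraries and lower in both EGFP-negative ones. Both genes passed (adjusted p = 0.00109 and adjusted p = 0.0027). Whether reads of Ccl8 were shared with the related genes Ccl7 and Ccl12 was not tested.

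Receptor and adaptor genes were among the others of widest gap. Cd93, a receptor of phagocytes and endothelium, was at 50.3, 74.7, 114 and 60.5 CPM in cDC2 and had counts in 1 of the 4 cDC1 libraries (adjusted p = 0.00151). Folr2, the folate receptor of resident macrophages, was at 31.1, 30.0, 145 and 183 CPM in cDC2, again higher in the EGFP-positive libraries, and at 0 to 0.0702 CPM in cDC1 (adjusted p = 0.000194). Mrc1, the mannose receptor, was at 0.140, 8.30, 0.175 and 0.211 against 261, 325, 433 and 323 CPM and missed the test (adjusted p = 0.0877) with 1 cDC1 library above the others. Blnk, an adaptor of B cell receptor signalling that macrophages also carry, was at 46.9, 38.4, 44.4 and 30.5 CPM in cDC2 and at 0 to 0.0702 CPM in cDC1 (adjusted p = 0.00251). The B cell markers Cd79a and Ms4a1 were too low to be tested. Rin2, an activator of the GTPase RAB5, Ikbke, a kinase of the antiviral response, Fcrls, an Fc receptor-like gene, and Abcc3, a transporter gene, each stood at 12.5 CPM or more in every cDC2 library and at 0.14 CPM or less in every cDC1 library, and all 4 passed (adjusted p 0.00244 to 0.0167). No cDC1 library had a count of Tmem2, which was thus at least 528-fold lower than in cDC2 (adjusted p = 0.0359), or of Nxpe5, at least 663-fold lower (adjusted p = 0.0222).

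**Figure D3:**
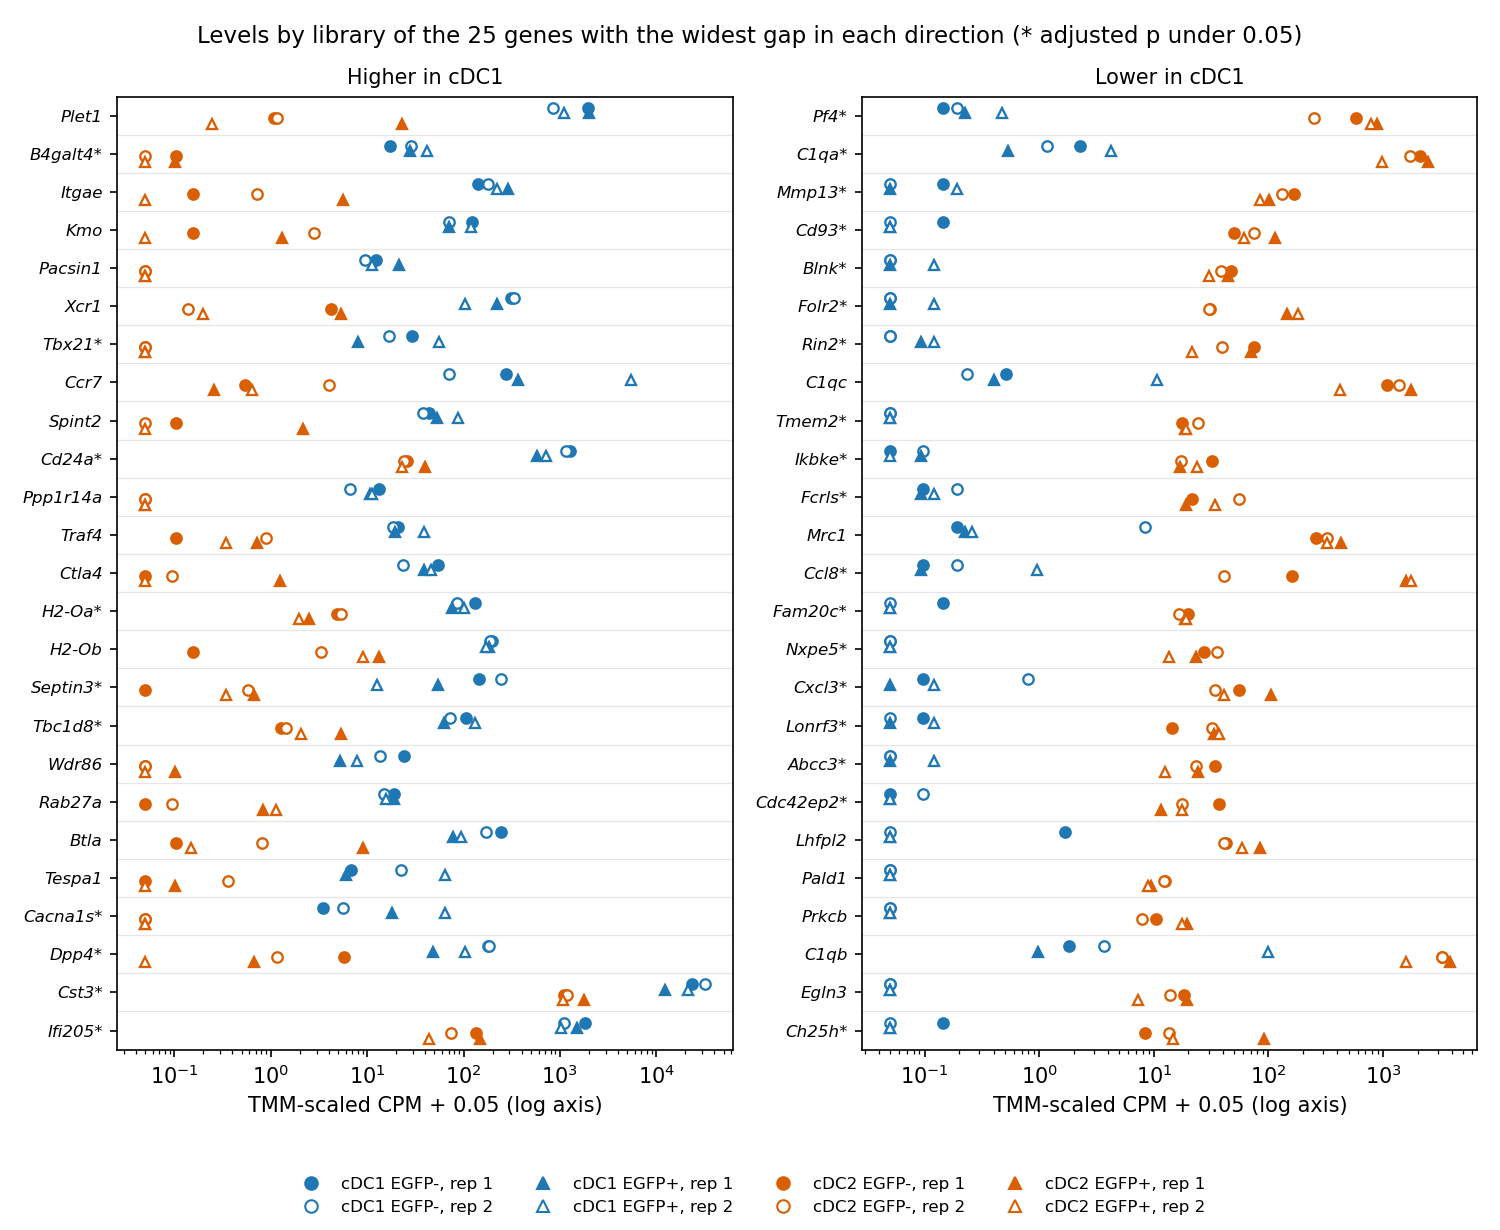
Levels in each library (TMM-scaled CPM + 0.05, log axis) of the 25 genes with the widest gap in each direction, ordered by gap, with cDC1 in blue, cDC2 in orange, EGFP-negative as circles, EGFP-positive as triangles, replicate 1 filled and replicate 2 open. An asterisk marks adjusted p under 0.05; Pf4 has the widest gap of all, and Plet1 the widest among genes higher in cDC1.

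The genes least dependent on any 1 library were sought after their values were seen. With each of the 8 libraries left out in turn, 40 of the 150 genes passed in all 8 fits, 27 higher and 13 lower in cDC1. The other 110, among them genes described above and below as passing, lost the call without at least 1 library. Of the 150 calls, 146 and 140 remained without EGFP-positive cDC1 replicates 1 and 2, and 48 to 76 without any 1 of the others. Among the higher genes was Klrk1, which encodes the activating receptor NKG2D, at 284, 207, 159 and 241 CPM in cDC1 and 20.4, 34.1, 15.5 and 4.95 CPM in cDC2 (log2 fold change 3.73 ± 0.48, adjusted p = 0.00725). P2ry10, a receptor for lysophospholipids, was at 290.3, 359.9, 63.6 and 179 against 19.2, 32.6, 5.78 and 1.19 CPM (adjusted p = 0.0125). Slc25a20, the carnitine carrier that brings fatty acids into mitochondria, was at 216, 168, 42.4 and 161 against 8.84, 13.8, 12.6 and 8.17 CPM (adjusted p = 0.00821). Acadl, the long-chain dehydrogenase of fatty acid oxidation, was at 385, 257, 229.6 and 204 against 84.6, 64.1, 54.3 and 55.8 CPM (adjusted p = 0.00754). In each of these 4 genes the lowest cDC1 library lay above the highest cDC2 library, by the least in P2ry10.

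Also among the 27 were the actin-associated genes Zyx (719 ± 186 against 101 ± 35.1 CPM, SD, n = 4), Cnn2 (414 ± 66.1 against 45.8 ± 15.9 CPM) and Lsp1 (1449 ± 495 against 174 ± 95.8 CPM), higher by 2.88 ± 0.31, 3.22 ± 0.33 and 3.15 ± 0.33 on the log2 scale. Fnbp1, which bends membranes during endocytosis, was at 150.3, 111, 128 and 121 against 33.1, 36.1, 28.7 and 25 CPM, a narrow spread within either subset (log2 fold change 2.06 ± 0.28, adjusted p = 0.00881). Dapp1, an adaptor downstream of phosphoinositide 3-kinase, was at 304, 249, 116 and 160.2 against 41.6, 43.5, 21 and 8.07 CPM (adjusted p = 0.00596). Gcnt2, a glycan-branching enzyme, was at 501, 421, 283 and 283 against 30.9, 57.6, 45.4 and 22.0 CPM (adjusted p = 0.00251). Others of the 27 were Amica1, Anxa6, B4galt4, Ccnd3, Cd24a, Cd83, Cst3, H2-DMb2, H2-Oa, Ifi205, Pfkp, Plbd1, Ppm1m, Syngr2, Tbc1d8 and Trim35. Cd24a, a surface marker of mouse cDC1, had the lowest adjusted p of the genes higher in cDC1 (1258, 1156, 575 and 724 against 26.0, 24.3, 39.5 and 22.8 CPM, log2 fold change 4.98 ± 0.38, adjusted p = 0.000703).

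The 13 lower genes were Blnk, C1qa, Ccl8, Cd93, Ctsb, Ctsd, Dab2, Folr2, Mmp13, Pf4, Plin2, Rin2 and Saa3. Dab2, an endocytic adaptor of macrophages, was at 31.0, 50.7, 46.6 and 71.2 CPM in cDC1 and 275, 440.4, 357 and 331 CPM in cDC2 (log2 fold change −2.84 ± 0.33, adjusted p = 0.00346). Plin2, which coats lipid droplets, was at 146, 197, 231 and 163 against 975, 859.9, 1122 and 803 CPM (log2 fold change −2.35 ± 0.26, adjusted p = 0.00295). In both genes all 4 cDC1 libraries lay well below all 4 cDC2 libraries. Saa3, an acute-phase gene, was at 0, 0, 0 and 0.140 CPM in cDC1 and 1.08, 6.59, 105 and 193 CPM in cDC2 (adjusted p = 0.00251). Its cDC2 levels were carried by the EGFP-positive libraries.

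**Figure D4:**
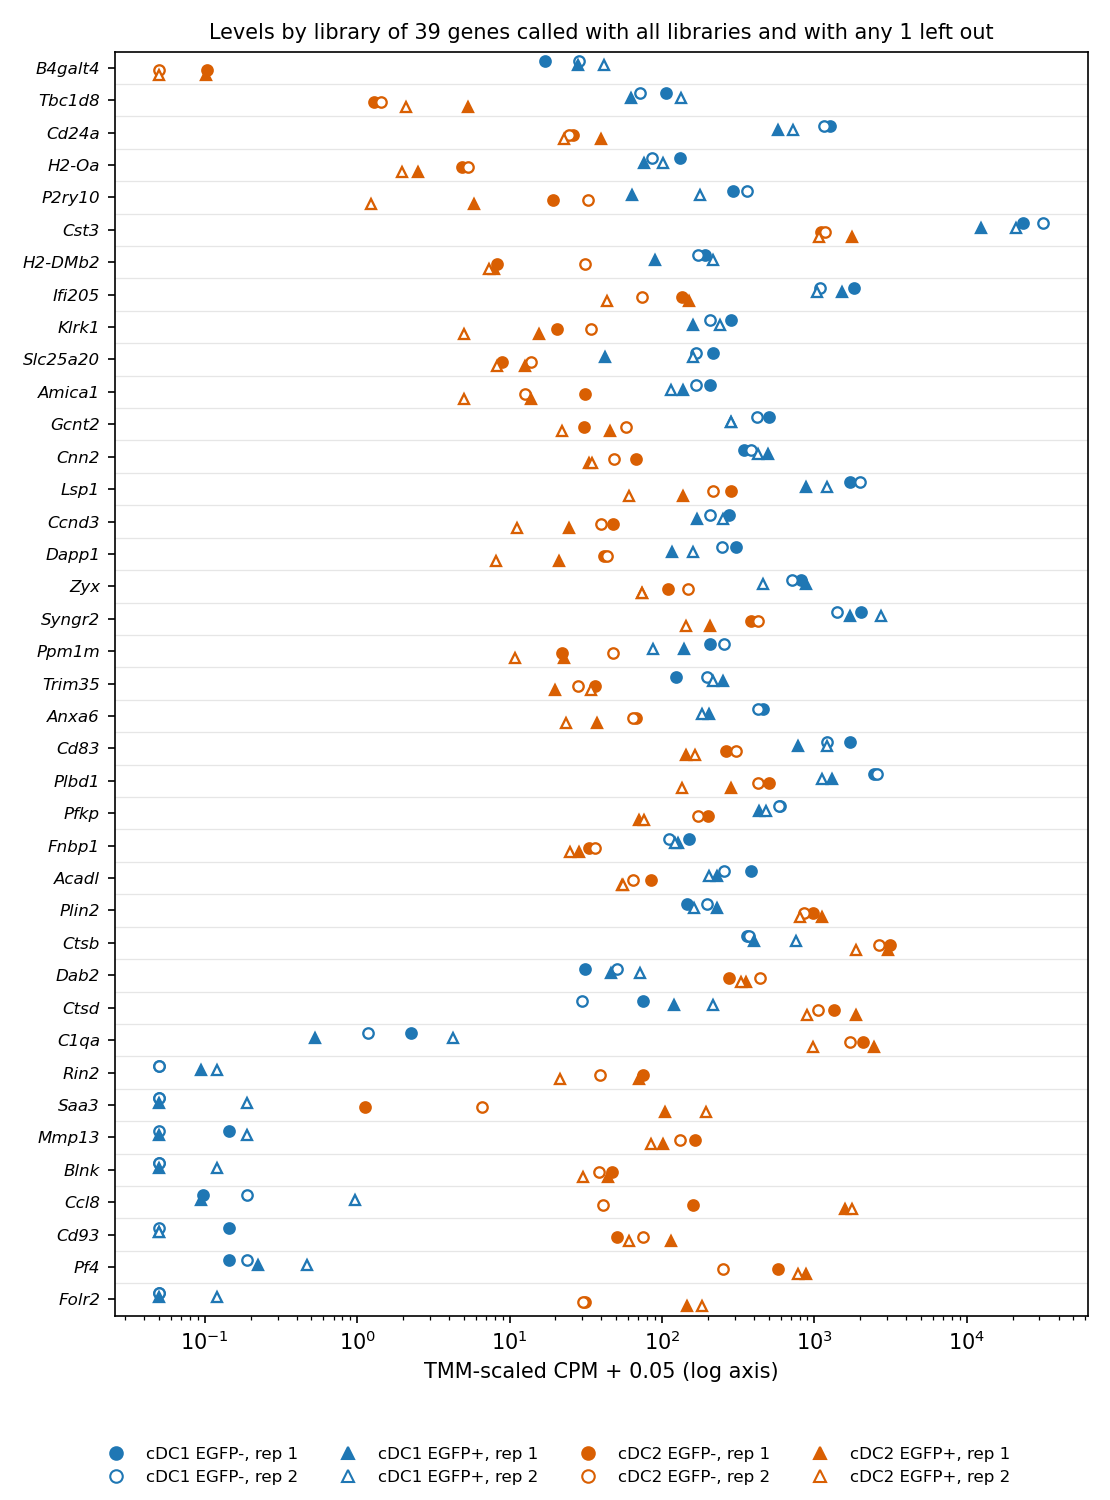
Levels in each library (TMM-scaled CPM + 0.05, log axis) of 39 of the 40 genes that passed the test with all 8 libraries and with any 1 library left out, ordered by log2 fold change, with symbols as for the genes of widest gap. In all 39 genes the 4 blue cDC1 points lie on the same side of the 4 orange cDC2 points.

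Promoters of some of these genes were read for motifs of factors known in myeloid cells, to show the sequence beside the levels. RefSeq promoters (GRCm38.p6, 250 bases before to 50 after the start) were matched by symbol for 8735 of the 11394 tested genes, 349 of the 451 higher and 737 of the 975 lower ones. The motif called EICE, which PU.1 binds together with IRF4 or IRF8, was found on either strand in 2.79% of all 27025 promoters, in 4.3% of the higher and in 2.71% of the lower genes. TGANTCA, the AP-1 motif that BATF factors also bind, was in 7.93%, 5.73% and 4.88%. The MAF motif TGCTGAC was in 4.58%, 2.58% and 4.61%, the lysosomal motif TCACGTGA, called CLEAR, in 1.01%, 0.573% and 2.04%, and the interferon-response motif called ISRE in 3.49%, 4.01% and 3.66%. Among the promoters of tested genes the 5 shares were 2.58%, 4.99%, 3.4%, 2.08% and 3.27%. The AP-1 and MAF motifs can overlap in part, as can EICE and ISRE. A match is a description of letters and not a binding site. Shown are the 250 bases before the start of 2 genes of the 40 that were higher in cDC1 and 2 that were lower, 5′ to 3′ on the gene's strand, with the motif in capitals. In Klrk1 (chr6:129623865-129624114, minus strand), Dapp1 (chr3:137981550-137981799, minus strand) and Ccl8 (chr11:82114935-82115184, plus strand) this is EICE, read on the opposite strand, at 43 to 34, 14 to 5 and 79 to 70 bases before the start. In Mmp13 (chr9:7272264-7272513, plus strand) it is the AP-1 motif at 35 to 29 bases before the start, and the same stretch also holds an ISRE match, left in lower case. These stretches lie upstream of the annotated exons.
Klrk1: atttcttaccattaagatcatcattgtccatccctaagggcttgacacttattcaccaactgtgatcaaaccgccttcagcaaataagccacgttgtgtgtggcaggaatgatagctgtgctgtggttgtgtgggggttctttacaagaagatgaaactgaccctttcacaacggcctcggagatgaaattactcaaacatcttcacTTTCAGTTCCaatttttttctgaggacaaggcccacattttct
Dapp1: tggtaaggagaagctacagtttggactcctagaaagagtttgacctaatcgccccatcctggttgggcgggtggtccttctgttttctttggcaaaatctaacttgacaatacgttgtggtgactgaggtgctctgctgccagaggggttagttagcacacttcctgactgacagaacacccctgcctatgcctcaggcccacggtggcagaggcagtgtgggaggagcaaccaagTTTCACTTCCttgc
Ccl8: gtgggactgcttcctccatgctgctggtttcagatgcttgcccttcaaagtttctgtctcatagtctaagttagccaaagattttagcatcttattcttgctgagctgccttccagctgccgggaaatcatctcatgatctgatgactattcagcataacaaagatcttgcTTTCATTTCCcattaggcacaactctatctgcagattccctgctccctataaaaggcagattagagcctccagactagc
Mmp13: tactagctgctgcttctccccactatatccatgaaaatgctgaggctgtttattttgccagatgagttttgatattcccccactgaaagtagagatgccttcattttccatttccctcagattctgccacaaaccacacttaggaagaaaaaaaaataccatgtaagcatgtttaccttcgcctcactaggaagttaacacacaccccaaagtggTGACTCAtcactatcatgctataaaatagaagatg
The EICE motif thus occurs in promoters of both directions, in Klrk1 and Dapp1, which were higher in cDC1, and in Ccl8, which was near 0 there.

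The most abundant non-overlapping genes, those of at least 1000 CPM in the higher subset, numbered 29 in each direction (CPM is not scaled to gene length). Of those in cDC1 that passed the test the most abundant was Cst3, which encodes the protease inhibitor cystatin C, at 23490.0, 31774, 12364 and 21102 CPM in cDC1 and 1112, 1176, 1776 and 1065 CPM in cDC2 (log2 fold change 4.08 ± 0.37, adjusted p = 0.00133). Among actin and actin-regulating genes, Actb, the most abundant of all 29, stood at 43191 ± 6018 against 19726 ± 10316 CPM and Actg1 at 6801 ± 806 against 3638 ± 1199 CPM, with Tmsb10, Tagln2 and Actr3 also higher in every cDC1 library, none past the test (adjusted p 0.111 to 0.136 over the 5). Naaa, an acid amidase abundant in cDC1, was at 3774, 3071, 1543 and 1165 against 517, 395, 546 and 239.7 CPM (log2 fold change 2.35 ± 0.37, adjusted p = 0.019). Syngr2, Plbd1, Gm2a, S100a11 and Cd83 passed too (adjusted p 0.00251 to 0.0209). The interferon-induced membrane genes Ifitm1 and Ifitm2 were higher in every cDC1 library and did not pass (adjusted p = 0.0979 and adjusted p = 0.0535).

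In cDC2 they were led by Fth1, the ferritin heavy chain. It was at 3706, 4612, 1111 and 14723 CPM in cDC1 and 35816, 25217, 38304 and 26962 CPM in cDC2. The cDC1 libraries spread widely, EGFP-positive replicate 1 lowest and replicate 2 highest, and the gene missed the test (adjusted p = 0.146), whereas the light chain Ftl1 passed at 3598, 2819.8, 2875 and 7476 against 11587, 9916, 16546 and 13698 CPM (log2 fold change −1.65 ± 0.32, adjusted p = 0.0419). With each library left out in turn, the log2 fold change of Fth1 was −3.597 to −2.145. Lyz2, lysozyme, was at 1705, 2276, 290.2 and 8773 against 22622, 18508, 17556 and 10212 CPM (adjusted p = 0.306), Apoe at 132, 1.63, 1.31 and 1543 against 7419.8, 4298, 7549 and 3790.1 CPM (adjusted p = 0.413) and Arg1, the arginine-degrading enzyme of suppressive myeloid cells, at 18.9, 1.54, 1.27 and 1362 against 8773, 7089.9, 4706 and 2429 CPM (adjusted p = 0.451). In all 3, EGFP-positive cDC1 replicate 2 was the highest cDC1 library and the groups still did not overlap. With each library left out in turn, the log2 fold change was −4.155 to −2.192 for Lyz2, −7.874 to −3.769 for Apoe and −10.25 to −3.872 for Arg1. Spp1, osteopontin, was lower in cDC1 with less spread, 167, 855, 86.8 and 425 against 8472, 7966, 8744 and 6645 CPM (log2 fold change −4.46 ± 0.66, adjusted p = 0.0141). Anxa5, which binds phosphatidylserine on dying cells, was at 431, 357, 487 and 510.4 against 916, 994, 1063 and 1078 CPM (log2 fold change −1.19 ± 0.22, adjusted p = 0.0359). The vimentin gene Vim and the proteoglycan gene Srgn had levels of 1449 ± 317 against 2937 ± 488 CPM and 1704 ± 589 against 3179 ± 305 CPM, without overlap and without passing (adjusted p = 0.114 and adjusted p = 0.241).

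Most genes of MHC class II presentation were higher in cDC1. Of 13 tested, 9 were higher without overlap and 5 passed, 1 (Lgmn) was lower without overlap, and the list's median was 1.44. Leaving out EGFP-positive cDC1 replicate 2 gave 4 calls higher and 2 lower. The chain genes were the most counted of them, and H2-Aa stood at 19332, 19185, 13219 and 18321 CPM in cDC1 and 8562, 6874, 5826 and 3070.3 CPM in cDC2. H2-Aa, H2-Ab1 and H2-Eb1 all passed, with log2 fold changes of 1.57 ± 0.29, 1.49 ± 0.28 and 1.70 ± 0.32, and in each the lowest library was EGFP-positive cDC2 replicate 2. The changes of H2-Oa, H2-Ob and H2-DMb2 were larger than those of the chains. H2-DMb2 encodes a chain of DM, which edits the peptides loaded onto class II. H2-Oa and H2-Ob encode the chains of DO, which restrains DM. H2-Oa was at 130.3, 85.5, 76.5 and 102 against 4.80, 5.30, 2.45 and 1.93 CPM (adjusted p = 0.00109), H2-Ob at 198, 189, 183 and 172 against 0.108, 3.29, 13.4 and 8.96 CPM (adjusted p = 0.0555) and H2-DMb2 at 192, 172, 90.0 and 216 against 8.25, 31.3, 7.86 and 7.28 CPM (adjusted p = 0.0111). Reads of H2-DMb2 and its near copy H2-DMb1 (1021 ± 322 against 398 ± 209 CPM, adjusted p = 0.0594) may have been split by the counting. The invariant chain gene Cd74 did not overlap (26344 ± 5125 against 13038 ± 4457 CPM, adjusted p = 0.138). Ciita, the master regulator of class II genes, and the invariant chain protease Ctss overlapped. Lgmn, a lysosomal protease that cuts antigens, was at 81.8, 111, 87.8 and 796 against 2242, 2210.0, 2032 and 806 CPM (adjusted p = 0.194). With each library left out in turn, its log2 fold change was −4.321 to −2.589.

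Genes of MHC class I loading and cross-presentation were in part higher in cDC1. Of 25 tested, 7 were higher in cDC1 without overlap, 3 of them past the test, with a list median of 0.07. Another 2 were lower without overlap (B2m and Cybb), near the share of all tested genes (8.56% lower, 3.96% higher). When EGFP-positive cDC1 replicate 2 was left out, 3 passed higher and 3 lower, and 8 were lower without overlap. Wdfy4, required for cross-presentation of cell-associated antigen, was at 262, 387, 192 and 227 against 9.59, 13.6, 42.5 and 11.6 CPM (log2 fold change 3.88 ± 0.57, adjusted p = 0.0125). Rab43, a GTPase with a part in cross-presentation, was at 106, 115, 85.2 and 90.7 against 27.9, 24.6, 46.1 and 24.7 CPM (log2 fold change 1.69 ± 0.34, adjusted p = 0.0488). Psmb9, an immunoproteasome subunit, was at 701, 567, 351 and 456 against 193, 143, 155 and 80.0 CPM (log2 fold change 1.85 ± 0.29, adjusted p = 0.019). The peptide transporter genes Tap1 and Tap2 were higher in every cDC1 library but did not pass (adjusted p = 0.113 and adjusted p = 0.0752). B2m, the class I light chain, was at 6109, 4475, 3187 and 9788 against 14117, 11554, 16954 and 9845 CPM with the nearest libraries almost touching (adjusted p = 0.208). The class I heavy chain genes H2-K1 and H2-D1 overlapped.

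Innate sensors differed by member. Of 23 pattern recognition receptor genes, 2 were higher in cDC1 and 7 lower without overlap, beside 3.96% and 8.56% of all tested genes. Of the 2 higher genes 1 passed, and none of the 7 lower ones passed edgeR's test. DESeq2, which called more unchanged genes than edgeR in simulated counts, called 6 lower. Without EGFP-positive cDC1 replicate 2, 11 were lower without overlap. Tlr3, the sensor of double-stranded RNA, was at 74.6, 74.2, 14.7 and 56.0 against 7.71, 6.72, 2.92 and 4.46 CPM (log2 fold change 3.31 ± 0.55, adjusted p = 0.022), with EGFP-positive replicate 1 the lowest cDC1 library. Tlr11, a sensor of parasite profilin, was at 48.0, 33.3, 10.9 and 5.68 against 0.0539, 3.34, 2.08 and 0 CPM (adjusted p = 0.335). The lower ones were the sensors of bacterial products Tlr1, Tlr2 and Tlr6, the endotoxin co-receptors Cd14 and Ly96, Tlr13 and Nlrp3. Tlr13, which senses bacterial ribosomal RNA, had the least spread, at 10.6, 13.6, 17.4 and 16.1 against 43.3, 44.7, 60.5 and 51.3 CPM (adjusted p = 0.0646). Cd14 was at 89.4, 249.6, 1.18 and 831 against 4909, 4971, 3415 and 1714 CPM (adjusted p = 0.359).

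Among 27 uptake receptors, 2 (Clec9a and Ly75) were higher in cDC1 and 8 lower without overlap, beside 3.96% and 8.56% of all tested genes. Of the 27, 0 passed by edgeR. At an unadjusted p under 0.05 there were 2 higher and 9 lower. DESeq2, which called more unchanged genes than edgeR in simulated counts, called 2 higher and 11 lower. By edgeR, 7 passed lower and 15 were lower without overlap when EGFP-positive cDC1 replicate 2 was left out, and 2 passed lower without replicate 1. Ly75, the antigen uptake receptor DEC-205, was at 55.5, 10.9, 80.7 and 169 against 5.39, 0.134, 0.521 and 0.446 CPM (adjusted p = 0.157). Stab1, a scavenger receptor, was at 1.96, 3.64, 0.0438 and 18.7 against 47.7, 62.0, 88.1 and 63.6 CPM, and Lrp1, a receptor for apolipoproteins and dying cells, at 2.01, 1.72, 16.5 and 49.0 against 121, 142, 156 and 108 CPM. Neither passed (adjusted p = 0.235 and adjusted p = 0.0932), and in both the highest cDC1 library was EGFP-positive replicate 2. Cd36, a receptor for lipids and dying cells, was at 48.3, 53.4, 0 and 72.5 against 119, 110.3, 155 and 128 CPM (adjusted p = 0.75).

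Lysosomal genes separated in part. Of 34 tested, 17 were lower and 1 (Cst3) higher without overlap, beside 8.56% and 3.96% of all tested genes. Of the 17, 3 passed the test, and so did Cst3. The list's median was −1.37. The list's summed level overlapped between the subsets, at 23190 to 45590 CPM in cDC1 and 19240 to 40100 CPM in cDC2. Of these sums, Cst3 alone gave 12364 to 31774 CPM in cDC1 and 1065 to 1776 CPM in cDC2. Without EGFP-positive cDC1 replicate 1, 6 passed lower, and without replicate 2, 11. The cathepsin genes Ctsb and Ctsd, proteases of the lysosome, were at 363, 375, 403 and 754 against 3140.4, 2636, 3034 and 1875 CPM and at 74.7, 30.0, 121 and 217 against 1342, 1051, 1889 and 898 CPM (log2 fold change −2.53 ± 0.33, adjusted p = 0.00801 and log2 fold change −3.78 ± 0.50, adjusted p = 0.00801). Lamp1, a lysosomal membrane protein gene, was at 82.0, 108, 206 and 265 against 786, 901, 747 and 444 CPM (log2 fold change −2.25 ± 0.42, adjusted p = 0.0381). Ctsl was at 10.9, 11.8, 1045 and 222 against 2504, 1413, 2806 and 1668 CPM, with its highest cDC1 library EGFP-positive replicate 1 (adjusted p = 0.271). Tfeb, a transcription factor of lysosomal genes, was at 0.608, 0.792, 0 and 0.421 against 11.7, 6.81, 7.39 and 2.18 CPM (adjusted p = 0.359). Psap, the saposin precursor, overlapped, at 4781 to 8317 CPM in cDC1 and 2664 to 5549 CPM in cDC2.

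Among chemokine genes the separation was mainly towards lower levels in cDC1. Of 21 tested, 12 were lower and 1 (Ccl22) higher without overlap, beside 8.56% and 3.96% of all tested genes. Another 8 overlapped, and the list median was −4.11. The 6 that passed, all lower, were Pf4, Ccl7, Ccl8, Ccl12, Cxcl3 and Cxcl9. Cxcl3, which attracts neutrophils, was at 0.0467, 0.746, 0 and 0.0702 against 55.6, 34.3, 105 and 40.8 CPM (log2 fold change −8.38 ± 1.34, adjusted p = 0.0192). Cxcl9, which attracts T cells through CXCR3, was at 216, 173, 108 and 137 against 681, 498, 719 and 287 CPM (log2 fold change −1.82 ± 0.34, adjusted p = 0.0359). Ccl12 was at 0.187, 0, 3.11 and 4.77 against 75.6, 61.0, 184 and 102 CPM (log2 fold change −6.98 ± 1.13, adjusted p = 0.0209). The EGFP-positive replicate 2 library of cDC1 carried the most Ccl6, Ccl9 and Cxcl2 of its subset: Cxcl2 was at 25.7, 19.9, 16.6 and 550.1 CPM in cDC1 and 1899.6, 1582, 1157 and 1081 CPM in cDC2 (adjusted p = 0.289). With each library left out in turn, its log2 fold change was −6.184 to −3.214. Ccl22, a ligand of CCR4 on regulatory T cells, was at 24.2, 41.2, 20.6 and 128 against 0.0539, 5.25, 0 and 0.446 CPM (adjusted p = 0.242).

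Of 19 chemokine and growth factor receptors, 4 were higher in cDC1 and 0 lower without overlap, beside 3.96% and 8.56% of all tested genes. The 4 were Xcr1, Ccr7, Flt3 and Kit, and 0 of the 19 passed by edgeR. At an unadjusted p under 0.05 there were 5 higher and 1 lower, and DESeq2, with the same limit, called 5 higher and 1 lower. Without EGFP-positive cDC1 replicate 2, 6 were lower without overlap, and 1 higher and 1 lower gene passed. Of 28 cytokine genes, 1 (Il12b) was higher without overlap, near the 3.96% of all tested genes. Lower without overlap were 5, against 8.56% of all tested genes, and 1 of the 5 passed the test. Without that library 10 were lower without overlap, and 1 higher and 2 lower genes passed. Il12b, the shared chain of interleukins that steer T cells, was at 16.8, 98.6, 25.3 and 4651 CPM in cDC1 and 0.323, 2.23, 0.0521 and 0.248 CPM in cDC2 (adjusted p = 0.26). Its mean in cDC1 came almost wholly from EGFP-positive replicate 2, and without that library the log2 fold change was 6.21. With each library left out in turn it was 6.21 to 11.84. Vegfa, the angiogenic factor, was at 4.67, 1.86, 19.6 and 40.7 against 72.6, 78.8, 149.7 and 145 CPM (log2 fold change −3.40 ± 0.60, adjusted p = 0.03). Tnf was at 2.06, 13.8, 0 and 6.95 against 158, 107, 97.1 and 29.0 CPM, and Il1rn, the interleukin-1 receptor antagonist, at 69.6, 279, 0.569 and 496 against 3400.1, 2850.2, 1976 and 1348 CPM. Neither passed (adjusted p = 0.249 and adjusted p = 0.377). Il1b overlapped, at 1282 to 5644 CPM in cDC1 and 1559.5 to 6174 CPM in cDC2.

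The mature regulatory state of dendritic cells is migratory and marked by Ccr7 and checkpoint ligands. Of its 19 tested genes, 4 were higher in cDC1 and 0 lower without overlap, beside 3.96% and 8.56% of all tested genes. Those 4 were Ccr7, Cd200, Ccl22 and Il12b. By edgeR 0 of the 19 passed, and the list median was 0.84. At an unadjusted p under 0.05 there were 4 higher and 1 lower, and DESeq2, with the same limit, called 4 higher and 1 lower. The calls were 2 higher and 1 lower without EGFP-positive cDC1 replicate 2. The list summed to 838.9 to 13070 CPM in cDC1 and 783.7 to 2064 CPM in cDC2, and the only library above 2064 CPM was EGFP-positive cDC1 replicate 2. The costimulation and checkpoint list had 6 of 25 genes higher and 5 lower without overlap, beside 3.96% and 8.56% of all tested genes. In the fit without EGFP-positive cDC1 replicate 2, 8 were lower without overlap and 2 passed lower. Cd83, a surface protein of activated dendritic cells, was the only one to pass with all 8 libraries, at 1707, 1206, 785 and 1207 against 263, 308, 143 and 164 CPM (log2 fold change 2.52 ± 0.27, adjusted p = 0.00251). Cd226, a costimulatory receptor, was at 27.3, 35.9, 31.9 and 28.6 against 5.98, 2.94, 1.35 and 3.27 CPM with little spread in cDC1 (adjusted p = 0.0705). Pdcd1lg2, which encodes the checkpoint ligand PD-L2, was at 82.7, 85.0, 192 and 242 against 73.7, 26.9, 45 and 6.98 CPM (adjusted p = 0.287), and Cd274, which encodes PD-L1, overlapped.

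Complement genes were lower in cDC1 in 10 of 16 cases without overlap, with 1 past the test, 0 higher and a median of −5.59, or −4.47 with the 5 members at 0 counts in cDC1 set to their bound against 3 counts. Without EGFP-positive cDC1 replicate 1, 3 passed, and without replicate 2, 5. Besides the C1q chains these included the protease gene C1ra and the component gene C4b, both at 0 counts in all 4 cDC1 libraries and at 16.1, 5.07, 27.9 and 14.3 and 31.4, 13, 23.7 and 1.83 CPM in cDC2 (adjusted p = 0.0602 and adjusted p = 0.0705). Matrix remodelling genes counted 10 lower and 1 higher without overlap among 23, beside 8.56% and 3.96% of all tested genes. Of the 23, 4 passed the test lower and 1 higher. Mmp14, a membrane collagenase, was at 7.76, 1.26, 17.5 and 18.9 against 95.7, 85.0, 136 and 73.9 CPM (log2 fold change −3.42 ± 0.66, adjusted p = 0.0416). Mmp12, the macrophage elastase, was at 0.701, 12.5, 0.394 and 45.6 against 1803, 1222, 1324 and 666 CPM and missed the test (adjusted p = 0.157). Adam19, a membrane metalloprotease, was higher in cDC1, at 10.8, 33.4, 22.1 and 63.8 against 0.0539, 0.0445, 1.82 and 2.28 CPM (log2 fold change 6.23 ± 1.26, adjusted p = 0.049). Of 21 tested adhesion genes, 2 (Itgae and Itgb7) were higher and 4 lower without overlap, beside 3.96% and 8.56% of all tested genes. Itga9 was 1 of the lower ones (0 to 0.608 against 9.71 to 16.3 CPM, adjusted p = 0.182).

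Lipid handling genes counted 8 lower and 2 higher without overlap among 28, beside 8.56% and 3.96% of all tested genes. Of the 28, 2 passed lower, and the list median was −1.48. These counts rose to 7 past the test and 12 without overlap, both lower, when EGFP-positive cDC1 replicate 2 was left out. Those 2 were Plin2 and Nceh1, a cholesterol ester hydrolase, at 12.3, 16.5, 3.85 and 12.1 against 75.6, 66.9, 103 and 89.4 CPM (log2 fold change −2.95 ± 0.50, adjusted p = 0.0249). Abca1, the cholesterol exporter, was at 1.36, 1.96, 0.0438 and 22.9 against 88.9, 78.3, 212 and 131 CPM (adjusted p = 0.195). The higher ones were sterol regulators: Srebf2, which turns on cholesterol synthesis, was at 56.4, 47.4, 62.8 and 61.3 against 12.8, 12.3, 22.3 and 24.5 CPM (adjusted p = 0.0634), and Nr1h2, which encodes the sterol receptor LXRβ, at 46.2 to 83.0 against 17.4 to 45.2 CPM (adjusted p = 0.285). Of 25 glycolysis and hypoxia genes, 4 were lower and 1 higher without overlap, with Vegfa lower and Pfkp higher past the test and a median of −0.84. Over all tested genes 8.56% were lower and 3.96% higher without overlap, so the 1 higher gene is near that share. Pfkp, the platelet form of phosphofructokinase, was at 599, 586, 435 and 485 against 199.8, 173, 71.0 and 76.4 CPM (log2 fold change 2.16 ± 0.28, adjusted p = 0.00801). Pgk1, a later enzyme of glycolysis, was at 221, 189, 316 and 266 against 666, 614, 553 and 443 CPM (adjusted p = 0.0752). Leaving out EGFP-positive cDC1 replicate 1 or 2 gave 4 or 5 calls lower. Without both, 14 of these 25 genes passed lower and 1 higher, while 3.55% of all genes tested in that setting passed and 33.5% did not overlap.

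Of 45 transcription factor genes of the myeloid lineage, 10 were higher and 9 lower without overlap, beside 3.96% and 8.56% of all tested genes. The test was passed by 5 of the 10 and 3 of the 9, and the list median was 0.17. Besides Irf8, Batf3 and Tbx21, the higher ones past the test were Irf7, an inducer of interferon genes (240.0, 107, 294 and 157 against 69.0, 50.5, 49.1 and 37.4 CPM, adjusted p = 0.0449), and Etv3, an ETS family repressor (73.9, 70.5, 71.1 and 163 against 11.7, 21.8, 25.3 and 32.1 CPM, adjusted p = 0.0374). Lower were Cebpb, a factor of monocyte and macrophage genes, at 17.2, 8.95, 6.17 and 46.5 against 181, 156, 219.8 and 121 CPM (log2 fold change −3.19 ± 0.62, adjusted p = 0.0422), Klf4 at 17.1, 18.8, 26.2 and 69.8 against 85.6, 108, 175 and 237 CPM (log2 fold change −2.27 ± 0.36, adjusted p = 0.0197) and Egr2 at 19.3, 37.3, 24.2 and 42.4 against 82.1, 127, 137 and 131 CPM (log2 fold change −1.95 ± 0.35, adjusted p = 0.0337). EGFP-positive replicate 2 was the highest cDC1 library for all 3. Zeb2, a factor of cDC2 and monocytes, was at 4.44, 0.979, 6.78 and 50.1 against 111, 69.3, 163 and 181 CPM (adjusted p = 0.0759). Spi1, Runx3 and Nfil3 overlapped.

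Type I interferon response genes counted 5 higher and 1 lower without overlap among 28, 2 higher past the test, with a median of 0.20. Over all tested genes 3.96% were higher and 8.56% lower without overlap. Ifi205, a DNA-sensing family member, was at 1810.2, 1096, 1512 and 1039 against 134, 73.5, 149.7 and 43.4 CPM (log2 fold change 3.76 ± 0.45, adjusted p = 0.00435), and reads could be shared with its near copies. Usp18, an inhibitor of interferon signalling, was at 135, 56.2, 107 and 61.6 against 2.05, 14.9, 12.0 and 23.7 CPM (adjusted p = 0.0909). Isg15 and Ifit1 overlapped. Of 31 cell cycle genes, 1 was higher without overlap and passed, and 0 were lower without overlap. Over all tested genes 3.96% were higher without overlap, so 1 of 31 is near that share. DESeq2 called 1 higher and 6 lower, and 4 were higher without overlap when EGFP-positive cDC1 replicate 2 was left out. The gene was Ccnd3, cyclin D3, at 274, 206, 169.9 and 250.3 against 47.7, 39.8, 24.7 and 11.1 CPM (log2 fold change 3.0 ± 0.40, adjusted p = 0.00801). Mki67 and Top2a, expressed in dividing cells, overlapped.

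**Figure D5:**
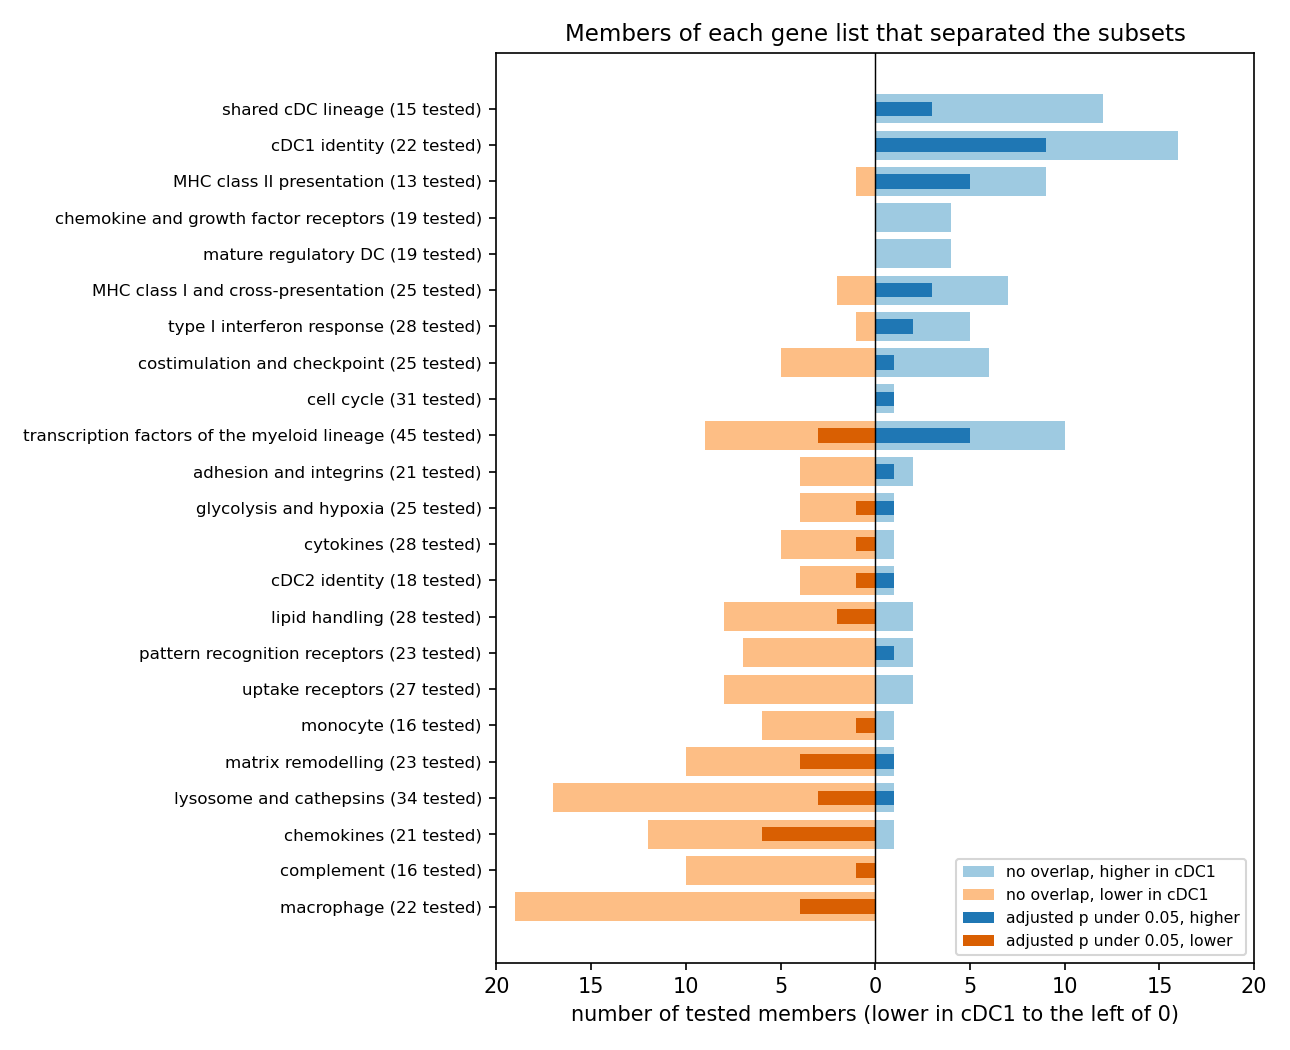
Number of tested members of each of 23 gene lists whose levels did not overlap (wide pale bars) and that passed the test (narrow dark bars), with genes higher in cDC1 to the right of 0 and genes lower to the left. The cDC1 identity and shared cDC lists extend only to the right, with 16 of 22 and 12 of 15 members, and the macrophage and complement lists only to the left, with 19 of 22 and 10 of 16.

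The subset differences were also read within the EGFP fractions. In the EGFP-negative libraries alone (2 against 2), 292 genes passed the test, 106 higher and 186 lower in cDC1. In the EGFP-positive libraries alone 0 genes passed by edgeR's test, with 1678 at an unadjusted p under 0.05. The difference between the fractions, as an interaction of subset with EGFP over all 8 libraries, was called in 0 genes, with a smallest adjusted p of 0.141 and 1180 genes at an unadjusted p under 0.05. DESeq2 was not run on the interaction. For the 1426 non-overlapping genes this means that no difference between the fractions was detectable with 2 libraries a group, not that there was none.

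Separation without overlap did not require a large change. The 5 genes of smallest fold change in each direction, among those of at least 10 CPM, show this. Rpl6, a ribosomal protein gene, was at 748, 730.2, 623 and 629.7 CPM in cDC1 and 545, 619.9, 550.2 and 601 CPM in cDC2 (0.23 ± 0.22, adjusted p = 0.755). Caml, Dad1, Trappc4 and Cirbp were the others higher in cDC1, with log2 fold changes of 0.25 to 0.45. Jak1, a kinase of cytokine receptors, was at 87.1, 97.2, 88.9 and 113 against 123, 117, 136 and 124 CPM (−0.37 ± 0.24, adjusted p = 0.591). It was joined by Cnih4, Pdcd5, Gnb1 and Saraf, with log2 fold changes of −0.47 to −0.32. None of these 10 genes passed the test.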

How the data were processed

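The deposited values are raw counts per gene symbol in 1 table of 24369 genes by 8 libraries, from messenger RNA sequencing. The submitters' processing notes name Trimmomatic 0.39, STAR 2.7.5c, Cufflinks 2.2.1 and the mouse build mm10. No source used here gives the read counter, the annotation or the strand setting, so reads of overlapping or near-identical genes may have been split or shared. Columns were matched to libraries by title, and 0 columns had no library.

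Counts were fitted with edgeR 4.0.16 in R 4.3.3: filterByExpr by group, TMM scaling, robust glmQLFit with subset and EGFP fraction as additive terms, glmQLFTest, and Benjamini-Hochberg adjustment over the 11394 genes kept, with a threshold of 0.05. Standard errors are the absolute log2 fold change over the square root of F. Alternatives used DESeq2 1.42.0 and limma 3.58.1 (voom). Levels are TMM-scaled CPM. Totals of 17869441 to 22195681 counts put 3 counts at 0.131 to 0.211 CPM per library. A fold against a subset at 0 counts is a lower bound with that subset set to 3 counts over the group, which covers counting error only, since reads are not independent molecules.

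The compared libraries, the 32 gene lists and the tests were chosen with earlier results of these data known, so no count over a list is independent evidence of its direction. Of the lists' entries, 10 were matched through an older symbol and 5 were not matched. The genes named were the 25 of widest gap per direction among non-overlapping genes of at least 10 CPM in the higher subset, without predicted-gene symbols. To these were added up to 6 non-overlapping members and the defining overlapping members of each list, Dpp4 and the defining markers of cDC and macrophages, the non-overlapping genes of at least 1000 CPM, and the 5 per direction of smallest fold change. Genes that kept the call with any 1 library left out, and the 3 that passed with overlapping levels, were named after their values were seen. Settings without both EGFP-positive cDC1 libraries or within 1 EGFP fraction were applied to the counts of non-overlapping genes, and all settings to the gene lists, after the data were seen. A few genes are not reported here by name.

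The test was run on simulated counts for 10626 genes with the spread of these libraries and 50 genes changed at each fold. The changed genes were drawn from those with a mean of at least 10 CPM, so recovery of weaker genes was not tested. For cDC1 against cDC2, edgeR recovered 0 of the 50 changed by 2-fold and 5 of those changed by 4-fold. It recovered 33 and 43 of those changed by 16-fold and 64-fold, and 9 of its 90 calls were unchanged genes. DESeq2 recovered 0, 20, 42 and 48, and 146 of its 256 calls were unchanged genes. Non-overlapping levels were found in 7, 22, 40 and 45 changed genes and in 265 unchanged ones.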

Additional observations from a re-analysis of the deposited data

Results flagged for a closer look

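Within a subset, a library was singled out where its gap to the nearest of the other 3, as a share of the range of all 4, was above Dixon's critical value. This held for 34 of the 398 groups of 4 examined (8.54%, 199 genes in both subsets). The chance rate of about 1 in 20 holds for groups of 4 like libraries. These groups join both EGFP fractions, and many of the genes were chosen by their levels, so the 8.54% cannot be set against that rate. Where 3 libraries stood at 0, any count in the remaining library was flagged. The library of EGFP-positive cDC1 replicate 2 was the high library in 11 of them. It held C1qc at 10.7 CPM, Cxcl2 at 550, Etv3 at 163, Lgmn at 796, Ctsb at 754, Traf4 at 39.2 and Ccl8 at 0.912 CPM. At the level of 1 or a few counts it also stood above the others for Abcc3, Blnk and Folr2 (0.0702 CPM each) and for Saa3 (0.14 CPM).

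In the other cDC1 libraries, EGFP-positive replicate 1 was low for Cd36 (0 CPM) and H2-Aa (13200 CPM) and high for Gpnmb (8.75 CPM). EGFP-negative replicate 1 was high for the lectin genes Cd209a (29.1 CPM) and Clec10a (82.9 CPM), for Itga9 (0.608 CPM) and for Cd93 (0.0935 CPM), and low for Pdcd5 (36.4 CPM). EGFP-negative replicate 2 was high for Mrc1 (8.30 CPM) and Cxcl3 (0.746 CPM). Among the cDC2 libraries, EGFP-negative replicate 1 was high for Ly75 (5.39 CPM) and low for Irf4 (0.269 CPM), Egr2 (82.1 CPM) and Runx3 (57.7 CPM). EGFP-negative replicate 2 was high for H2-DMb2 (31.3 CPM) and Itga2b (0.0445 CPM) and low for Cd200 (0 CPM) and Isg15 (45.6 CPM). EGFP-positive replicate 1 was high for Ctla4 (1.20 CPM), Spint2 (2.13 CPM) and Wdr86 (0.0521 CPM). EGFP-positive replicate 2 was low for Fcgr1 (139 CPM) and Lgmn (806 CPM), which brought Lgmn close to the 796 CPM of EGFP-positive cDC1 replicate 2.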

How the results depend on the processing

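The count of genes that passed moved with the processing, whereas no passing gene named in the text changed sign. Of the 81 named genes that passed, 0 kept the call in every alternative, since 0 genes passed in the EGFP-positive libraries alone. Against 150 genes (93 higher and 57 lower in cDC1), DESeq2 called 1160 (396 and 764), voom with quality weights 846 (310 and 536), the fit with no low-count filter 236 (146 and 90), the fit without robust estimation 99 (61 higher) and the fit with 1 mean per group 275 (146 lower). Without both EGFP-positive cDC1 libraries 392 passed (291 lower), in the EGFP-negative libraries alone 292 (186 lower), and in the EGFP-positive libraries alone 0 (0 higher and 0 lower). With 1 library left out, 50 to 277 genes passed, 31 to 133 higher and 19 to 170 lower, and 1635 to 2234 did not overlap. In these fits a group left with 1 library is taken to vary like the others. The 1426 non-overlapping genes became 924 (449 higher and 475 lower) with at least 10 CPM in at least 4 libraries. They became 567 with at least 2-fold between the nearest libraries, here without the 0.5 CPM added to the gap above. Without both EGFP-positive cDC1 libraries there were 3693. Within the EGFP-negative and EGFP-positive fractions there were 5300 and 5019, where 2 against 2 libraries separate more easily. RLE scaling, unscaled CPM and removal of Rn45s left the counts within 1.5 times.

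The replicate number as a block gave 82 calls (52 higher and 30 lower), 80 of them among the 150. Deviations of same-numbered libraries correlated at −0.224 to 0.0408, which gives no sign of pairing. Titles share a code within a number, and whether it stands for an animal is not given, so pairing was not established.

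Changes of sign occurred in 11 named genes, none of which passed the test, and the cause was not tested. As log2 fold changes, Il1b was 0.016 with at least 10 CPM in 4 libraries, 1.05 in the EGFP-positive libraries alone and −0.82 to 0.30 with 1 library left out. Ifit1 was −0.086 with voom, −0.57 with the replicate block, −1.99 in the EGFP-positive libraries and −1.11 to 1.13 with 1 left out. Runx3 was −0.14 with voom and −0.35 to 0.48 with 1 left out, and Irf4 −2.63 to 0.24. Cd274 was 0.042 without the EGFP covariate, 0.45 in the EGFP-positive libraries and −0.50 to 0.30 with 1 left out, Nfil3 0.29 in the EGFP-positive libraries, and Top2a 0.072 with voom. Without both EGFP-positive cDC1 libraries, and in the EGFP-negative libraries alone, Clec10a was 0.53 and 0.51, Mgl2 0.28 and 0.26, Mki67 0.38 and 0.36, Top2a 0.50 and 0.47, Runx3 −0.57 and −0.59, and Spi1 −0.078 and −0.10.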

Other observations

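The libraries that set the edge of the gap differed by direction. Among the 451 non-overlapping genes higher in cDC1, the lowest cDC1 library was EGFP-positive replicate 1 in 145 genes and EGFP-negative replicate 1 in 82, and the highest cDC2 library was an EGFP-negative one in 146 and 144 genes, leaving aside for cDC2 the 9 genes at 0 counts there. Among the 975 lower in cDC1, the highest cDC1 library was EGFP-positive replicate 2 in 265 genes and EGFP-positive replicate 1 in 125, leaving aside the 158 genes at 0, and the lowest cDC2 library was EGFP-positive replicate 2 in 291. Of all tested genes, 496 had 0 counts in all 4 cDC1 libraries and 84 had 0 counts in all 4 cDC2 libraries.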
